A study of Mus musculus with 6 samples.

Results

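The potassium channel genes of mouse oligodendrocyte precursor cells (mOPCs) were compared between 3 libraries of cells given control siRNAs (siNC) and 3 libraries of cells given siRNAs against Qk (siQk). They were taken as every row of the gene tables whose symbol starts with Kcn, which gave 95 of 23038 genes, 94 of them protein-coding and 1 the long noncoding RNA Kcnq1ot1. The cells were primary mOPCs immunopanned from mid-gestation mouse embryos, whose strain is not given in the sources used here, and poly(A)+ RNA was sequenced on the third day after transfection. Qk encodes the RNA-binding protein QKI, which is abundant in the oligodendrocyte lineage. The siQk group drew on several different siRNAs, and which of them each library received is not stated, so that the spread within siQk holds differences between siRNAs as well as between cultures. The labels call the 3 libraries of a group biological replicates without saying whether they came from separate animals or preparations, and p-values measure the spread between these libraries only.

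Potassium channels let potassium leave or enter the cell along its gradient and so set the resting membrane potential and shape excitability. Voltage-gated Kv channels open on depolarization, inward rectifiers (Kir) pass current near the resting potential, tandem-pore K2P channels carry leak current, and calcium- or sodium-activated channels (KCa and KNa) follow the concentration of those ions inside the cell. OPCs are known for strong voltage-gated potassium currents, and the inward rectifier encoded by Kcnj10 is known for potassium buffering in oligodendrocytes and astrocytes.

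Library totals ranged from 58166490 to 141045937 tags, a tag being the deposited unit of reads assigned to a gene. Qk, the targeted gene, stood at 209, 206 and 163 RPKM (tags scaled by exon length and by the library total) in siNC and at 51.3, 76.6 and 36.2 RPKM in siQk, which left 28.4% of the siNC mean, with a log2 fold change of -1.98 (SE 0.28, FDR = 0.00311). The smallest library, siNC 1, stood apart by its share of ribosomal precursor RNA (Rn45s), 3.11% against 0.169 to 0.389% in the others. Marker lists of the cell types that such a culture could hold also differed between the groups. Of 10 OPC markers, 4 were higher and 1 was lower in siQk, and their summed level was 1057 to 1133 RPKM in siNC and 1283 to 1445 RPKM in siQk. Of 11 tested markers of myelin and mature oligodendrocytes, 7 were lower and none higher, and their sum was 3456 to 6110 RPKM in siNC and 1481 to 2251 RPKM in siQk. Among 8 tested astrocyte markers 4 were lower, with sums of 293 to 413 and 288 to 311 RPKM. These 4 were Gfap (51.4 to 101 RPKM in siNC, 9.08 to 11.3 in siQk, log2 fold change -2.95), Slc1a3 (-1.38), Slc1a2 (-1.06) and Aldh1l1 (-2.21), while the gap junction genes Gja1 and Gjb6 of the same list were at 0.013 RPKM or less in every library. Among 10 tested neuron markers 1 was lower and 3 were higher, with sums of 198 to 275 and 204 to 255 RPKM. Gad2 was the lower one (-2.19), and Snap25 (2.64), Nefl (1.61) and Map2 (0.57) were the higher ones, Map2 being at 49.5 to 66.5 RPKM in siNC and 95.0 to 98.4 RPKM in siQk. Tubb3 (68.4 to 166 RPKM over all libraries) and Elavl3 (22.0 to 44.3 RPKM) were expressed and did not pass the test, while Stmn2 was at 0.0439 RPKM or less. The 8 microglia markers summed to 0.718 to 3.31 RPKM in siNC and 0.332 to 0.409 RPKM in siQk, of which only P2ry12 was tested, and it was lower, and each of the 10 fibroblast and vascular markers was under 0.5 RPKM in every library. In bulk RNA, fewer cells of a type and less RNA per cell cannot be told apart, and the part of these marker shifts in the potassium channel values was not tested.

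Of the 95 members, 43 had an average logCPM over 0 (the log2 count scaled to the library total) and were tested, and 52 were under that filter. With edgeR's quasi-likelihood test, called at P below 0.01 and FDR below 0.1, 14 of the 43 differed between siQk and siNC, 32.6% against 31.0% of all 12505 tested genes, so that the share of members called was close to that of any tested gene. There were 8 members lower in siQk (background 17.2%) and 6 higher (background 13.8%). Of the called members, 9 had a log2 fold change of 1 or more in size, which is 20.9% of the tested members beside 7.21% of all tested genes. The median absolute log2 fold change was 0.47 over the members and 0.25 over all tested genes. The median signed log2 fold change was -0.21 over the members and 0.01 over all tested genes, and 25 members were negative and 18 positive. These shares are descriptions of the list, with no test over it.

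**Figure D1:**
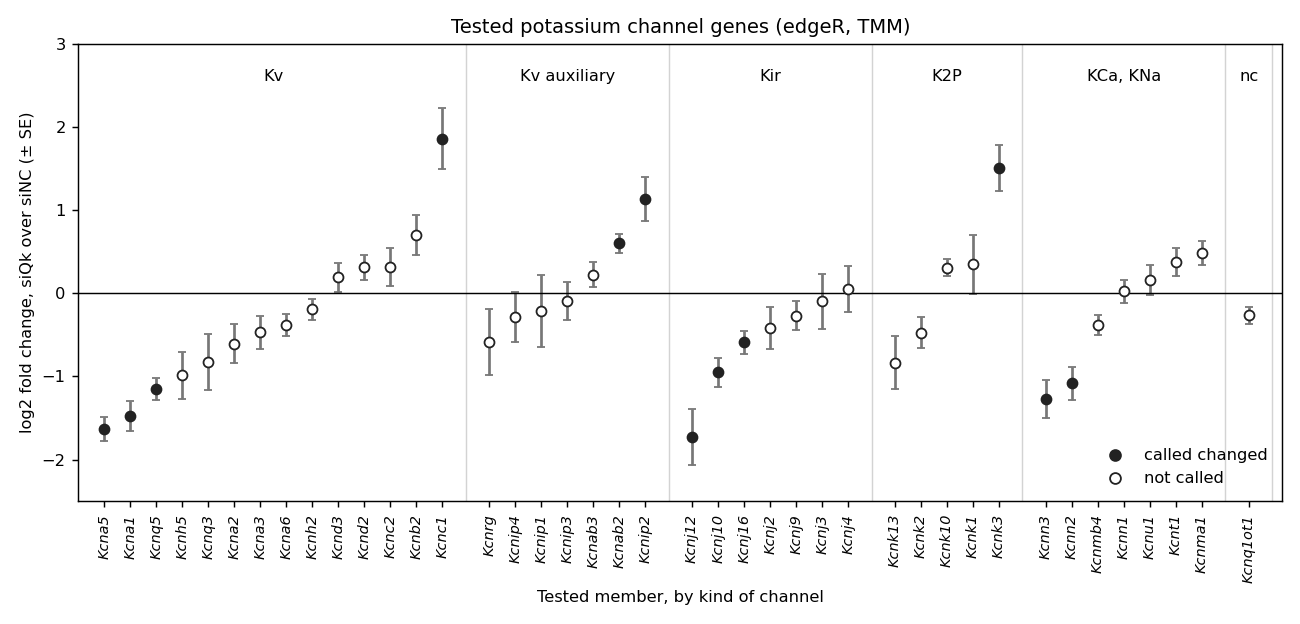
Log2 fold change (siQk over siNC) with its standard error for 41 of the 43 tested potassium channel genes, by subfamily, with called genes filled (nc, noncoding RNA). The called genes reach -1.73 (Kcnj12) on the lower side and 1.86 (Kcnc1) on the higher side, while the called Kir and KCa genes lie on the lower side.

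The QKI protein is known to bind RNA at the sequence ACUAAC or ACUAAU, so that copies of these letters in the 3'UTRs of called members are shown here as a description of the transcripts that the values below are about. The sites were read in the longest 3'UTR annotated for each gene (GENCODE M21, GRCm38), on the transcribed strand, overlapping matches counted. Capitals mark the 6 bases of the motif.
Kcna1, lower in siQk, chr6:126641240-126641265, minus strand: caaaaucuggACUAAUugagaauggu
Kcnq5, lower in siQk, chr1:21401263-21401288, minus strand: ggccagggugACUAACaauucccauu
Kcnj10, lower in siQk, chr1:172372577-172372602, plus strand: ggcaagcuuuACUAACagccacggcu
Kcnc1, higher in siQk, first site, chr7:46428618-46428643, plus strand: cugacgggcuACUAACccaguggugg
Kcnc1, higher in siQk, second site, chr7:46431909-46431934, plus strand: uuucuccaccACUAAUcucccuuucu
Kcnk3, higher in siQk, chr5:30623192-30623217, plus strand: uccggagggaACUAAUguucucgggu

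A copy was found in 4 of the 8 members lower in siQk, the fourth being Kcnn2, and in 3 of the 6 higher members. There were 0.291 copies per kilobase of 3'UTR in the lower members, 0.180 in the higher ones and 0.307 in those not called, of which 13 of 28 held a copy. Over all tested genes with a 3'UTR, 37.0% held a copy, 52.9% of the genes called lower and 28.6% of those called higher. The density was 0.329 copies per kilobase in all tested genes, 0.474 in those called lower and 0.234 in those called higher. Per kilobase, the members lower in siQk held fewer copies than all genes called lower, a value that rests on 4 copies in 8 genes. Of the 42 tested members with a 3'UTR, 47.6% held a copy. Their 3'UTRs were longer, with a median of 2231 bases beside 1475.5 in all tested genes. No test was run on these shares, and a copy is a match of letters, not a binding site. Introns were not searched, and an annotated 3'UTR can be shorter than the gene models of the files, as for Kcna1, whose 3'UTR of 1471 bases stands beside an exon length of 8970 bases.

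The Shaker-type Kv channels (Kcna) had the highest summed level of the Kv families in siNC and lost the most RPKM in siQk, with 2 genes called lower. Kcna1, which encodes a low-threshold delayed rectifier subunit (chr6:126636463-126645801, GRCm38), was at 61.8, 49.3 and 46.7 RPKM in siNC and at 21.1, 17.9 and 24.4 RPKM in siQk. The highest siQk library was below the lowest siNC library, and the siQk mean (21.1 ± 3.25, SD, n = 3) was 40.2% of the siNC mean (52.6 ± 8.06), with a log2 fold change of -1.47 (SE 0.18, FDR = 0.00199). Kcna5, a subunit of the same family lying 101 kb from Kcna1 (chr6:126532551-126535555), was at 4.59, 6.08 and 6.16 RPKM in siNC and at 1.75, 2.34 and 1.93 RPKM in siQk. Its groups did not overlap either, and its log2 fold change was -1.64 (SE 0.14, FDR = 0.000886), the lowest FDR among the tested members. The third gene of that cluster, Kcna6, 62.5 kb from Kcna1 on the other side, was at 31.6, 27.0 and 36.9 RPKM in siNC and 25.5, 31.6 and 24.4 RPKM in siQk. Kcna6 did not pass the test (log2 fold change -0.38, FDR = 0.0651), and its groups overlapped, though without siNC 2 it was called at -0.50. Kcna2, which assembles with Kcna1 in heteromeric channels, was at 21.2, 20.6 and 13.0 RPKM in siNC and at 12.7, 11.4 and 16.0 RPKM in siQk, and did not pass it either (log2 fold change -0.61, FDR = 0.0806). It was called at -0.82 without siNC 3, the siNC library nearest to siQk. The summed level of the 8 Kcna genes was 120.3, 104.4 and 103.9 RPKM in siNC and 61.91, 64.03 and 67.42 RPKM in siQk, so that siQk held 58.8% of the siNC mean. Kcna3, a further member, gave -0.47 (FDR = 0.102). All 5 tested Kcna genes had a negative log2 fold change, of which 2 passed the test.

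**Figure D2:**
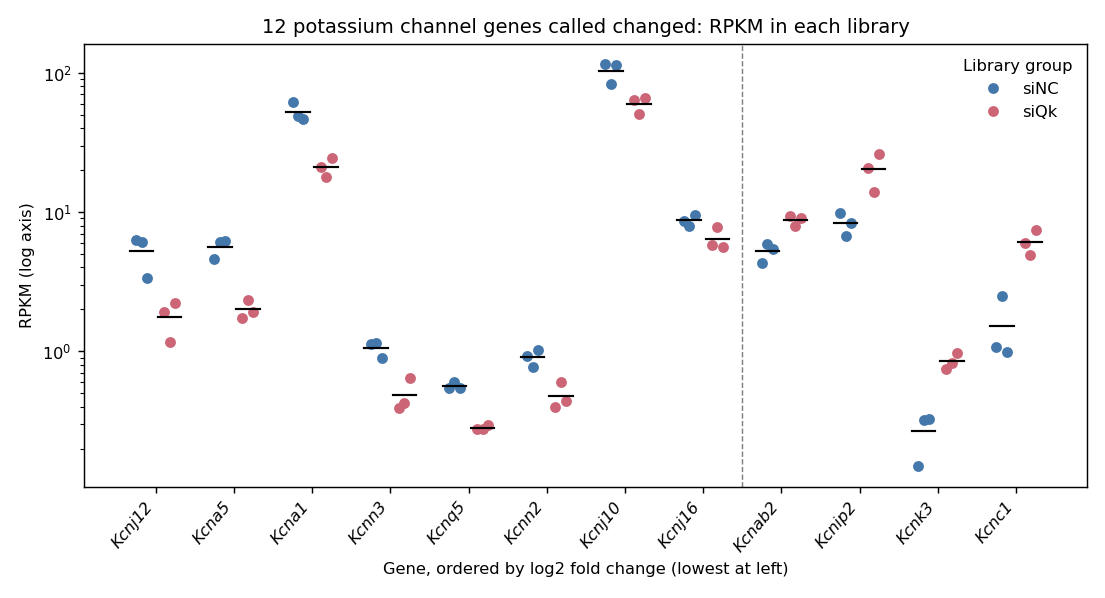
RPKM of 12 of the 14 called potassium channel genes in the 3 siNC and 3 siQk libraries (points) with the group means, on a log axis. In each of the 12 genes all siQk libraries lie on one side of all siNC libraries, narrowly in Kcnj16 (lowest siNC 7.99, highest siQk 7.88) and widely in Kcna1 (46.7 and 24.4).

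In the other Kv families the called genes went both ways. Kcnc1 encodes a fast-gating, high-threshold channel subunit known from rapidly firing neurons, and was at 1.08, 2.49 and 0.990 RPKM in siNC and at 6.04, 4.91 and 7.40 RPKM in siQk. All siQk libraries were above all siNC libraries, among which the second stood above the other two. Its log2 fold change of 1.86 (SE 0.37, FDR = 0.0101) was the highest of the tested members. Its relative Kcnc2 did not pass the test (0.31, FDR = 0.314). Kcnb2, a delayed rectifier subunit, was at 0.394 ± 0.0875 and 0.709 ± 0.167 RPKM and did not pass the test (0.70, FDR = 0.0561), with a call at 0.88 without siQk 2. Kcnq5, a subunit of the slow M-type current (chr1:21398399-21962650), was at 0.547, 0.606 and 0.545 RPKM in siNC and at 0.276, 0.276 and 0.296 RPKM in siQk. It fell to 49.9% with little spread in either group, a log2 fold change of -1.15 (SE 0.14, FDR = 0.00185). Kcnq3, a partner in the same current, was at 2.53 ± 1.07 and 1.60 ± 0.313 RPKM and was not called (-0.83, FDR = 0.0941). The A-type Kv4 genes Kcnd2 (0.31, FDR = 0.135) and Kcnd3 (0.19, FDR = 0.405) did not pass the test, and Kcnd2 was called at 0.49 without siNC 3. Kcnh5 was the member nearest to the limit on P without passing it, with 1.57 ± 0.658 RPKM in siNC and 0.876 ± 0.149 in siQk (log2 fold change -0.98, FDR = 0.034), and without siNC 1 it was called at -1.20. Over the 40 pore-forming Kv genes, 16 were tested, 3 were lower and 3 higher, and the sum was 139 ± 8.9 RPKM in siNC and 105 ± 5.15 RPKM in siQk.

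Among the auxiliary subunits that travel with Kv channels, 2 of 7 tested were called, both higher in siQk. Kcnip2, a calcium-binding partner of the A-type Kv4 channels, was at 9.81, 6.73 and 8.40 RPKM in siNC and at 20.6, 14.0 and 26.1 RPKM in siQk. The siQk libraries were all higher and spread widely, and the log2 fold change was 1.14 (SE 0.26, FDR = 0.0168). Its call was lost when any of 4 libraries was left out, siNC 2, siNC 3, siQk 1 or siQk 3, where the log2 fold change ran from 0.90 to 1.35 over all 6 such fits. The files give Kcnip2 an exon length of only 773 bases, so that its RPKM rests on a shorter gene model than its annotated 3'UTR of 1324 bases. Kcnab2, a cytoplasmic beta subunit of the Shaker-type channels, was at 4.31, 5.86 and 5.47 RPKM in siNC and 9.32, 7.91 and 9.04 RPKM in siQk, and rose by 0.60 on the log2 scale (SE 0.12, FDR = 0.00897). It was higher in every siQk library while Kcna1, a pore-forming partner of the beta subunits, was lower in every one. Kcnip3, by RPKM the most abundant auxiliary member, was at 59.0, 33.5 and 46.6 RPKM in siNC and at 53.0, 41.8 and 50.9 RPKM in siQk. Its groups overlapped and its log2 fold change was -0.09 (FDR = 0.764), which became 0.07 with scaling by library size alone. The other 4 tested genes of this group, Kcnab3, Kcnip1, Kcnip4 and Kcnrg, ran from -0.58 to 0.22 on the log2 scale and did not pass the test. The 13 auxiliary genes summed to 65.5 ± 13.4 RPKM in siNC and 83 ± 12.4 RPKM in siQk.

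The inward rectifiers held 3 called genes of 7 tested, all lower in siQk. Kcnj10 (chr1:172341210-172374085) was the most abundant potassium channel transcript of these cells, at 116, 82.7 and 114 RPKM in siNC and at 63.5, 50.4 and 65.5 RPKM in siQk. All siQk libraries were below all siNC libraries, and the mean went from 104 ± 18.4 to 59.8 ± 8.22 RPKM, a log2 fold change of -0.95 (SE 0.17, FDR = 0.0075). Kcnj16, whose product combines with that of Kcnj10 in heteromeric channels, was at 8.62, 7.99 and 9.49 RPKM in siNC and at 5.85, 7.88 and 5.62 RPKM in siQk. The second siQk library came close to the siNC libraries, and the log2 fold change was -0.59 (SE 0.14, FDR = 0.018), a call that was lost without siNC 1, siNC 3, siQk 1 or siQk 3 and with scaling by library size alone. Kcnj12, a strong rectifier (chr11:61022564-61073269), was at 6.31, 6.12 and 3.33 RPKM in siNC and at 1.92, 1.17 and 2.21 RPKM in siQk. It fell to 33.6% of the siNC mean, with a log2 fold change of -1.73 (SE 0.34, FDR = 0.00943), the lowest of the tested members, and the third siNC library was the one nearest to siQk. The other 4 tested Kir genes did not pass the test, with log2 fold changes of -0.42 for Kcnj2 (FDR = 0.229), -0.27 for Kcnj9 (FDR = 0.259), -0.10 for Kcnj3 (FDR = 0.835) and 0.05 for Kcnj4 (FDR = 0.904). Kcnj2 was called at -0.64 without siNC 1, and the value of Kcnj3 became 0.05 with scaling by library size alone. The 15 Kir genes summed to 133.6, 100.1 and 130 RPKM in siNC and to 74.16, 63.4 and 76.9 RPKM in siQk, 59.0% of the siNC mean, and Kcnj10 made up most of the sum in every library.

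**Figure D3:**
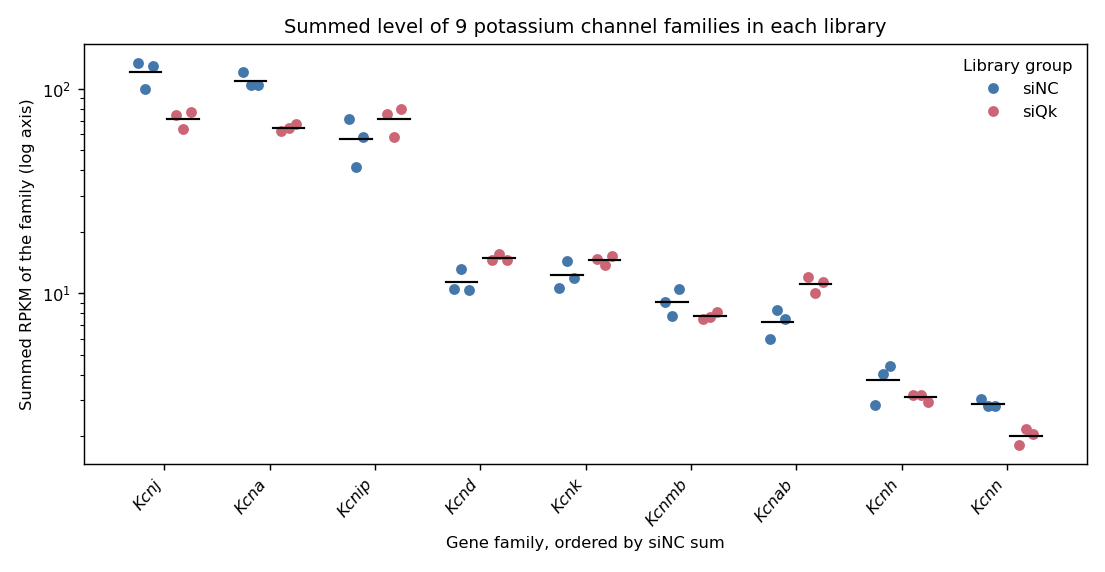
Summed RPKM of 9 potassium channel gene families (symbol without its number) in the 3 siNC and 3 siQk libraries, as points with group means, on a log axis. The Kcnj and Kcna sums stood at 59.0% and 58.8% of siNC in siQk, and the Kcnab sum at 154%.

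The calcium-activated channels of small conductance, known for a hyperpolarization that follows calcium entry, had 2 of 3 tested genes lower in siQk. Kcnn3 was at 1.13, 1.15 and 0.897 RPKM in siNC and at 0.393, 0.427 and 0.639 RPKM in siQk, a log2 fold change of -1.27 (SE 0.23, FDR = 0.00719). Kcnn2 was at 0.921, 0.774 and 1.02 RPKM in siNC and at 0.396, 0.600 and 0.437 RPKM in siQk, a log2 fold change of -1.08 (SE 0.20, FDR = 0.00774). Both were about 1 RPKM or less in siNC, with groups apart, while the paralog Kcnn1 gave 0.02, whose sign turned when siNC 2, siNC 3 or siQk 2 was left out. The large-conductance channel gene Kcnma1 averaged 0.751 ± 0.0855 RPKM in siNC and 1.17 ± 0.123 in siQk. It was called in 6 of 17 other fits, none of which left out a library. In the main fit it missed the limit on P alone (0.48, FDR = 0.0392). Its beta subunit gene Kcnmb4, far more abundant, was at 9.09 ± 1.35 and 7.73 ± 0.346 RPKM and also missed it (-0.38, FDR = 0.0429), with a call at -0.50 without siNC 2. Kcnu1, which encodes a channel related to that of Kcnma1, did not pass the test (0.16, FDR = 0.509). The sodium-activated channel gene Kcnt1 was at 1.70 ± 0.346 and 2.45 ± 0.398 RPKM and was not called (0.38, FDR = 0.114). Over the 12 KCa and KNa genes, 7 were tested and the sum was 15.2 ± 1.45 RPKM in siNC and 14.4 ± 0.746 in siQk.

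Of the K2P leak channels, 5 of 14 were tested and 1 was called. Kcnk3, an acid-sensitive leak channel, was at 0.149, 0.322 and 0.326 RPKM in siNC and at 0.752, 0.819 and 0.973 RPKM in siQk. It stayed under 1 RPKM in all 6 libraries with the groups apart, and its log2 fold change was 1.51 (SE 0.28, FDR = 0.00781). The more abundant leak channel genes Kcnk10 and Kcnk2 were at 5.25 ± 0.718 and 3.90 ± 0.912 RPKM in siNC and at 7.21 ± 0.398 and 3.11 ± 0.44 RPKM in siQk, and neither passed the test (0.31, FDR = 0.0508, and -0.47, FDR = 0.091). Without siNC 3, Kcnk10 was called at 0.40. Kcnk1 averaged 1.66 ± 0.852 RPKM in siNC and 2.35 ± 0.438 in siQk, with overlapping groups (0.35, FDR = 0.464). Kcnk13 gave -0.83 and was called at -1.09 without siNC 1.

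Summed over all 95 genes, potassium channel transcripts stood at 386, 317 and 356 RPKM in siNC and at 292, 265 and 310 RPKM in siQk, so that the groups did not overlap and siQk held 81.8% of the siNC mean. Most of the siNC sum lay in few genes. The 5 genes with the highest siNC means, Kcnj10, Kcna1, Kcnip3, Kcna6 and Kcna2, held 74.9, 67.1 and 72.1% of it in siNC and 60.2, 57.8 and 58.5% of the sum in siQk. Kcnj10 and Kcna1 alone held 45.9, 41.6 and 45.0% in siNC and 29.0, 25.8 and 29.0% in siQk. They were the 2 called genes among those 5. The called genes that were higher in siQk were less abundant than these 2 in siNC, where the largest mean among them was 8.31 RPKM (Kcnip2). In siQk, Kcnip2 (20.2 ± 6.03 RPKM) was close to Kcna1 (21.1 ± 3.25). The other called lower genes, Kcnj10 and Kcna1 aside, averaged 6.45 RPKM (Kcnj16) or less in siQk.

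**Figure D4:**
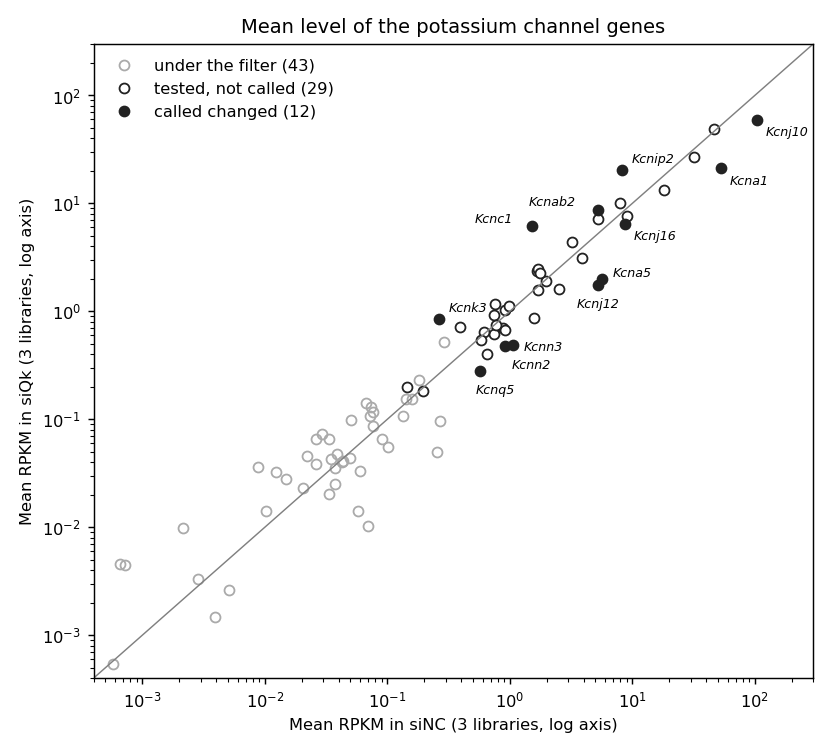
Mean RPKM in siQk against mean RPKM in siNC for 84 of the 95 potassium channel genes on log axes, with the diagonal of equal levels. Genes not plotted include 7 with a group mean of 0. Kcnj10 and Kcna1 are the called genes at the high end (104 and 52.6 RPKM in siNC), and the called genes above the diagonal start at or under 8.31 RPKM in siNC.

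Among the members tested and not called, 29 in all, 11 had an FDR below 0.1 but a P of 0.01 or more. Kcnh2, a Kv channel gene, was at 1.99 ± 0.344 and 1.93 ± 0.0827 RPKM (-0.19, FDR = 0.273). The noncoding RNA Kcnq1ot1 averaged 0.197 ± 0.0218 RPKM in siNC and 0.182 ± 0.0163 in siQk (-0.27, FDR = 0.0847), and since it lies within the span of Kcnq1 and the library kit does not mark the strand, reads from sequence that the 2 genes share cannot be assigned by strand, and their number was not measured. The rest of those not called ran from -0.98 (Kcnh5) to 0.70 (Kcnb2) on the log2 scale. After division by the TMM factor, 23 of the 43 tested members had RPKM ranges that did not overlap between groups, 13 of them lower in siQk, beside 54.4% of all tested genes. With RPKM as deposited, 20 of the 43 did not overlap, beside 58.3% of all tested genes.

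The 52 members under the filter were at 0.614 RPKM or less in every library. Of these, 17 had under 10 tags in each library, and Kcnk16, Kcnj1 and Kcne3 had no tag in any, which allows up to 3 tags in a library, for counting error only. A fit with no filter gave 49 of them a value and called 4, against 5.98% of all genes under the filter. Of these, 3 are named here, after their values were seen. Kcna4, a further Shaker-type gene, had 62, 153 and 166 tags in siNC and 27, 23 and 33 tags in siQk (log2 fold change -2.48, FDR = 0.000535). The beta subunit gene Kcnab1 (-1.61, FDR = 0.00711) and the auxiliary gene Kcne1 (-2.79, FDR = 0.0104) were lower in siQk. Kcne1 rested on few tags, 15, 32 and 16 in siNC and 7, 2 and 3 in siQk. Kcnab1 had 33, 130 and 100 tags in siNC and 41, 25 and 38 tags in siQk. In the same family, then, Kcnab1 and Kcnab2 were called in opposite directions.

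Potassium channel genes often lie next to each other. Counting only members next in order along a chromosome, 11 pairs lay within 200 kb of one another. In 5 of these both genes were tested, and in all 5 the log2 fold changes had the same sign, negative. All 5 pairs were of Kcna or Kcnj genes, with Kcna1 in more than 1 pair. In those families 5 of 5 tested Kcna genes and 6 of 7 tested Kcnj genes were negative, beside 48.8% of all tested genes. Both genes were called in 1 pair, Kcna5 and Kcna1. In the pair of Kcnj9 and Kcnj10, 11.9 kb apart, and that of Kcnj16 and Kcnj2, 38.2 kb apart, 1 gene was called and the other was not, and whether the neighbours differ was not tested.

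Genes that work with potassium channels were read in 3 lists of 49 genes, of which 28 were tested and 10 called, 6 lower and 4 higher in siQk, or 35.7% beside the background of 31.0%. Their median log2 fold change was -0.17. Of 10 tested channel partners 1 was lower and 1 higher. The higher one, Dpp10, a partner of the A-type Kv4 channels like Kcnip2, was at 3.30, 4.41 and 3.17 RPKM in siNC and at 6.89, 7.26 and 10.4 RPKM in siQk (1.03, SE 0.20, FDR = 0.00975). The other tested Kv4 partner on these lists, Dpp6, gave -0.17 (FDR = 0.686), and Kcnip1 (-0.21), Kcnip3 (-0.09) and Kcnip4 (-0.28), whose signs turned in some other fits, did not pass the test either, so that 2 of 6 tested Kv4 partners were called. Of 12 tested pumps and cotransporters, which bring potassium into the cell, 4 were lower and 1 higher, and the list summed to 653 to 708 RPKM in siNC and 510 to 547 RPKM in siQk. Fxyd7, a regulator of the sodium pump, was at 5.78, 7.41 and 8.54 RPKM in siNC and at 1.81, 3.09 and 1.99 RPKM in siQk (-1.82, SE 0.24, FDR = 0.00262). Chosen after its values were seen, Slc12a2, the cotransporter of sodium, potassium and chloride, averaged 103 ± 9.52 RPKM in siNC and 69.2 ± 5.89 in siQk and was called lower (-0.73). Of 6 tested other potassium-permeable channels 1 was lower and 2 were higher. Hcn4, a hyperpolarization-activated channel gene, averaged 0.169 ± 0.0609 RPKM in siNC and 0.383 ± 0.0468 in siQk (1.01, SE 0.27, FDR = 0.0272), and its call was lost without siNC 1, siNC 3, siQk 1 or siQk 2, with thinning to the smallest library (0.94) and with a replicate block (1.07), while its log2 fold change ran from 0.80 to 1.19 over all its fits.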

How the data were processed

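The authors aligned paired-end reads of poly(A)+ RNA to mm10 with OLego and counted genes with Quantas, whose versions and gene models are not given in the sources used here. They deposited, for each gene and library, an estimated count of tags, not normalized (23.1 to 26.2% of genes have decimals), the exon length, another deposited value, and the authors' RPKM, which is that count scaled by exon length and by the library total. The sources leave unstated whether tags are single reads or pairs, and how reads shared by paralogs were split, so that members with close paralogs or overlapping genes are uncertain to that degree.

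Counts were rounded and fitted over all genes by the quasi-likelihood test of edgeR 4.0.16, run under R 4.3.3 beside limma 3.58.1, with TMM factors (0.899 to 1.07) and the group as the only term, on 12505 genes with average logCPM over 0. Calls took P below 0.01 and FDR below 0.1 (Benjamini-Hochberg over the genes tested). Fold changes are therefore on the TMM scale, whereas RPKM is shown as deposited. Each SE was taken as the size of the log2 fold change over the root of its F statistic, and ± is the SD over 3 libraries. Replicates of one group differed by a chi-square per degree of freedom of 36.3 or more, so that each was counted as 1 sample. With 3 against 3, an exact permutation test cannot go below 0.1, and none is given. In data simulated for this comparison over 12505 genes, the fit called 50 of 50 genes raised by 1 on the log2 scale, 49 of 49 lowered by 1, 24 of 50 raised by 0.5 and 14 of 50 lowered by 0.5. Of its 148 calls, 7.43% were unchanged genes. The simulation gave every gene the same dispersion (coefficient of variation 0.146) and changed far fewer genes than were called in the data. Its shares are therefore not error rates of the real fit.

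The members, gene lists and tests were chosen with earlier results of these data known. The text names Qk, every called member, members not called with average logCPM over 3 (others by count or a short list), the highest member under the filter, partner and transport genes called with a log2 fold change of 1 or more in size, and defining markers. A few genes that it would name are not reported here. Gene positions came from RefSeq, and 3'UTRs of at least 50 bases came from GENCODE M21 (GRCm38). The alternatives were other tests (DESeq2 1.42.0, edgeR's likelihood ratio and exact tests), scalings, filters, thresholds, thinning to the smallest library, a replicate block and leaving out each library. Protein sequences, isoforms and exons were not analysed here.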

Additional observations from a re-analysis of the deposited data

How the results depend on the processing

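Over 17 other fits, the 14 called members kept sign and call in 225 of 238 values and lost the call in 13, none reversing: Kcnj16 in 6 (the block among them), Kcnip2 in 4 and 1 further member in 3. The number of members called ran from 11 to 16 with 1 library left out (7 to 10 lower, 4 to 7 higher), that of partner and transport genes from 7 to 11 (4 to 8 lower, 3 or 4 higher), that of all genes from 2478 to 3704 (1470 to 2094 lower, 1008 to 1610 higher, with 1008 without siQk 1 and 1104 without siQk 2), and the log2 fold change of Qk from -2.29 to -1.76. At an FDR limit of 0.05 with a log2 fold change of 1 or more in size, 9 members (3 higher), 4 partner and transport genes (2 lower, 2 higher) and 946 genes (620 lower, 326 higher) were called. Without the filter, 20 members were called, and DESeq2 called 20. Scaling by library size alone shifted the median of all genes to 0.16 and that of the members to -0.05, and gave 7 lower and 8 higher members beside 8 and 6, and 1365 lower and 2989 higher genes beside 2149 and 1730. Upper quartile factors gave 1785 lower and 2234 higher genes. Among members not called, 29 of 488 values passed the test and 16 changed sign. Kcnma1 passed in 6 fits, Kcnh5 in 5, Kcnb2 and Kcnmb4 in 4 each and Kcnk10 in 3. Kcna2 and Kcna6 passed in 2 each, and Kcnd2, Kcnj2 and Kcnk13 in 1 each. With library size alone the sign turned for Kcnj3 (0.047) and Kcnip3 (0.068). With 1 library left out the log2 fold changes ran from -0.031 to 0.13 for Kcnn1, with -0.017 without siNC 2 and -0.022 without siQk 2, from -0.41 to 0.21 for Kcnj3, with 0.078 without siQk 1 and 0.0084 without siQk 3, from -0.16 to 0.26 for Kcnj4, with -0.0095 without siNC 2 and -0.080 without siNC 3, from -0.60 to 0.084 for Kcnip1, with 0.035 without siQk 1, from -0.29 to 0.17 for Kcnip3, with 0.013 without siQk 2, and from -0.55 to 0.012 for Kcnip4. The cause of these changes was not tested. Same-numbered libraries did not deviate together (correlations -0.05, -0.15 and -0.34, and 0 of 6 libraries correlated best with its own number). No pairing by number was seen, but differences between siRNAs within siQk could mask one, so these correlations cannot exclude it. With a replicate block, 12 members (7 lower, 5 higher), 8 partner and transport genes (5 lower, 3 higher) and 2796 genes (1630 lower, 1166 higher) were called, and Qk gave -2.03. The depth limits the 52 members under the filter, most of all in siNC 1, the smallest library.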
